A study of Mus musculus with 9 samples.

Results

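The 10 genes described here encode regulators of the BCL2 family, which decide whether mitochondria release the signals that start cell death. They are the BH3-only genes Bbc3, Pmaip1, Bcl2l11 and Bid, the pore formers Bax and Bak1, and the survival genes Bcl2, Bcl2l1, Mcl1 and Bcl2a1b. They were chosen by name from the tumour cell table and found by the same gene identifiers in the macrophage table, and they are 10 of the 22176 genes listed in either table. All 10 passed a mean of 1 CPM (read counts scaled to a common library size) in macrophages and 8 did so in tumour cells, where Pmaip1 and Bcl2a1b had no read. The study sequenced RNA of 9 libraries, all labelled strain C57BL, with 1 library per group and so no replicates. The 4 macrophage libraries came from bone marrow-derived macrophages of the kinds labelled GM-BMDM and M-BMDM, each untreated or after 4 h of tunicamycin, a drug that blocks N-linked glycosylation and so stresses the endoplasmic reticulum. The 5 tumour libraries came from a mouse tumour line, Lewis lung carcinoma or LLC, left untreated or grown for 24 h in medium that GM-BMDM or M-BMDM had conditioned for 16 h. The donor macrophages had first been kept for 12 h with tunicamycin (stressed medium) or without it (unstressed medium) and were then washed, and the question, from the series title, is whether such stress passes from macrophages to tumour cells. How untreated LLC cells were fed is not stated in the labels.

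In the mitochondrial pathway of apoptosis, BH3-only proteins sense damage or stress, bind the survival proteins of the family and release or activate BAX and BAK, which perforate the outer mitochondrial membrane so that cytochrome c can assemble the apoptosome. Unresolved stress of the endoplasmic reticulum is known to reach this pathway through ATF4 and CHOP (the product of Ddit3), which can raise transcription of several BH3-only genes, and p53 is a second known activator of Bbc3 and Pmaip1. Much of the family's control lies in protein stability and binding, which RNA levels do not measure.

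Assigned reads numbered 37695079 to 42751176 in the macrophage libraries and 15020068 to 17128471 in the LLC libraries. All 10 macrophage markers examined were at 1 CPM or more in each macrophage library. Their sum was 38480 CPM in untreated GM-BMDM and 36360 CPM with tunicamycin, and 51070 and 31690 CPM in M-BMDM. Most of each sum was Lyz2, at 35000 and 33100 CPM in GM-BMDM and at 39100 and 21800 CPM in M-BMDM. Between the untreated kinds 5 of the 10 markers were at least 2-fold lower in GM-BMDM and 1 higher, with Adgre1 at 470 against 3160 CPM, Csf1r at 1000 against 5520 CPM and C1qa at 121 against 856 CPM. With tunicamycin 4 of the 10 markers were lower in GM-BMDM by that much and 1 higher. The GM-BMDM libraries had higher sums of the neutrophil, dendritic cell and mast cell lists. The summed level of 12 neutrophil markers was 1690 CPM (untreated) and 1621 CPM (tunicamycin) in GM-BMDM against 240.5 and 230.9 CPM in M-BMDM, that of 7 dendritic cell markers was 1725 and 1397 against 308.6 and 236.6 CPM, and that of 8 mast cell, basophil and eosinophil markers was 138.3 and 106.6 against 1.69 and 1.351 CPM. The neutrophil sum in GM-BMDM was mostly Mmp8 (1460 and 1490 CPM) and that in M-BMDM mostly Csf3r (190 and 199 CPM, against 8.57 and 8.18 CPM in GM-BMDM), while Ly6g and Retnlg were under 1 CPM in all 4 libraries. The dendritic cell sum in GM-BMDM was mostly Itgax (1100 and 1060 CPM) and H2-Ab1 (547 and 303 CPM), with Flt3 under 1 CPM. The mast cell, basophil and eosinophil sum there was mostly Siglecf (93.9 and 73.5 CPM) and Kit (35.6 and 25.5 CPM). Ms4a2, Mcpt8, Fcer1a and Epx were under 1 CPM in all 4 libraries. Of the other lists, 6 fibroblast and mesenchymal markers summed to 2953 and 2419 CPM in GM-BMDM against 503.2 and 423.3 CPM in M-BMDM. In GM-BMDM nearly all of this was Vim (1740 and 1560 CPM) and Fn1 (1210 and 857 CPM), with Col1a1, Col1a2 and Dcn under 1 CPM. The 7 epithelial markers summed to 74.07 and 32.29 against 0.1072 and 0.2374 CPM (nearly all Cdh1, at 73.5 and 32.1 CPM in GM-BMDM). The 8 lymphocyte markers summed to at most 8.291 CPM and 4 lung epithelial markers to at most 0.165 CPM in any macrophage library. In LLC cells the neutrophil sum stayed at or below 0.769 CPM, the lymphocyte sum at or below 0.756 CPM and the mast cell, basophil and eosinophil sum at or below 0.441 CPM. Macrophage markers summed to 26.8 to 40.71 CPM and dendritic cell markers to 15.4 to 26.53 CPM there, with Adgre1, Itgam and C1qa at 0 in all 5 libraries. Fibroblast and mesenchymal markers summed to 2535 to 3602 CPM in LLC cells, mostly Vim (2030 to 2830 CPM) and Fn1 (386 to 663 CPM). Only 2 of 7 epithelial markers (Krt8 and Krt18) reached 1 CPM in LLC cells, summing to 363.4 to 526.5 CPM with the others. None of the 4 lung epithelial markers did (sum at most 1.12 CPM), and Nkx2-1, a lung lineage factor, was at 0 in all 5 libraries, although the labels give lung as the tissue. In bulk RNA, fewer cells of a type and less RNA per cell cannot be told apart.

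Per unit of gene length, Mcl1 led the 10 genes in every library. On the deposited FPKM scale, which divides by gene length and library size, Mcl1 was at 228.4 in untreated GM-BMDM and 229.4 after tunicamycin, at 344.4 and 382.6 in M-BMDM, and between 62.69 and 78.32 in LLC cells. It made up 63.5% to 75.9% of the summed FPKM of the 10 genes in macrophages and 48.2% to 52.5% in LLC cells. In untreated GM-BMDM the next levels among the 10 genes were Bak1 at 48.75, Bax at 27.83, and Pmaip1 at 16.6 FPKM, and Bcl2 was lowest at 2.308. Bcl2a1a (132.5 FPKM) and Bcl2a1d (127.3 FPKM), near-identical copies of Bcl2a1b outside the 10 genes, stood above Bak1 there. The shares of the sum leave these copies out. Untreated M-BMDM had Bax (32.76 FPKM) above Bak1 (27.28 FPKM), and Bcl2a1b (0.8118) and Bcl2 (0.8981) at the bottom. In untreated LLC cells Bcl2l1 (19.83 FPKM) and Bcl2l11 (16.88 FPKM) followed Mcl1, ahead of Bak1 (11.42) and Bax (10.73). The order cannot be set against replicate spread, since each level comes from 1 library.

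**Figure D1:**
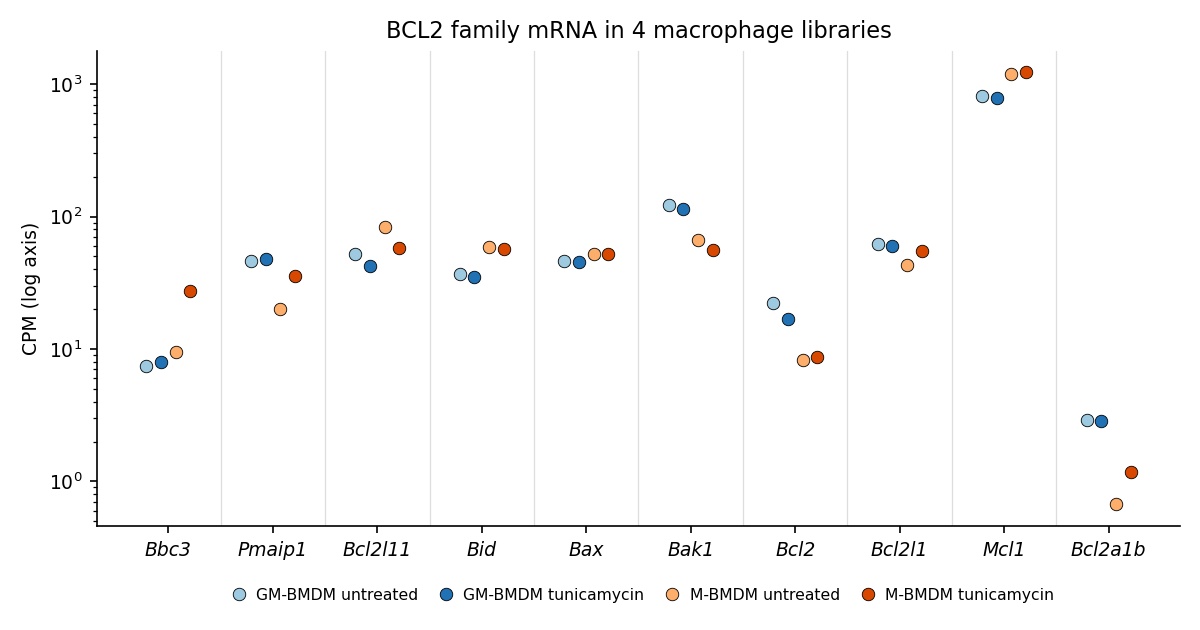
Level of the 10 BCL2 family genes in the 4 macrophage libraries, in CPM on a log axis, 1 point per library. Bbc3 stands at 27.21 CPM in M-BMDM after tunicamycin and at 7.377 to 9.473 CPM in the other 3 libraries, while the 4 points of Bax lie between 45.05 and 52.22 CPM.

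Tunicamycin went with a higher level of 1 BH3-only gene, Bbc3, in M-BMDM, and with no 2-fold difference of any of the 10 genes in GM-BMDM. A gene was called higher or lower between 2 libraries where log2(CPM + 1) differed by at least 1. By that rule 0 of 10 genes differed in GM-BMDM, where 0.507% of the 11049 genes compared did, and 1 of 10 in M-BMDM, where 1.47% did. The median difference of the 10 genes was -0.049 in GM-BMDM and 0.049 in M-BMDM on the log2(CPM + 1) scale, beside 0.001 and 0.004 over all genes compared. Such pairs of single libraries carry no test, and the 95% intervals given with each ratio cover counting error only.

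Bbc3, which encodes PUMA, a BH3-only protein that binds all the main survival proteins, lies at chr7:16308393-16318205 on the plus strand (GRCm38). Its level was 7.377 CPM in untreated GM-BMDM, 7.965 CPM in GM-BMDM with tunicamycin, 9.473 CPM in untreated M-BMDM and 27.21 CPM in M-BMDM with tunicamycin. The last library stood alone, and the other 3 were close together. The ratio of tunicamycin to untreated was 2.87 in M-BMDM (2.55 to 3.25), higher than in 99.5% of the genes compared, and 1.08 in GM-BMDM (0.921 to 1.27). On the log2 scale the response was 1.41 smaller in GM-BMDM than in M-BMDM (difference -1.41, counting interval -1.70 to -1.13). After tunicamycin GM-BMDM thus had 3.42 times less Bbc3 RNA than M-BMDM (3.02 to 3.87), compared with 1.28 times less in the untreated pair (1.1 to 1.5). RefSeq lists 3 starts for Bbc3, and the 250 bases before the first and the second are printed because this gene had the widest range in macrophages. They are read from the plus strand of GRCm38.p6 at chr7:16309333-16309582 and chr7:16310011-16310260, and capitals mark a match to an NF-kB motif in the first and a FOXO motif in the second.
Bbc3 start 1: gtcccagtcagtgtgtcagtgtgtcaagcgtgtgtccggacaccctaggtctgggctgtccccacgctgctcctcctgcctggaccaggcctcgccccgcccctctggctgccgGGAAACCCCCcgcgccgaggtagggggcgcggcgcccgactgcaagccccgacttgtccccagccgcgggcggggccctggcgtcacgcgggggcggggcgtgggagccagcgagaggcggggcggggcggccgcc
Bbc3 start 2: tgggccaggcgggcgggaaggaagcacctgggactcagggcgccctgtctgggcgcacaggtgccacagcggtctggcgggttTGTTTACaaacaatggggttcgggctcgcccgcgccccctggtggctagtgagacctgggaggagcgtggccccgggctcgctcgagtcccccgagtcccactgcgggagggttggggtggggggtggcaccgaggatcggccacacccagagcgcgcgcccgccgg
In all, 6 motifs were searched on both strands of all 32851 RefSeq windows of 250 bases: the ATF4 and C/EBP composite element TGATGNAA, the cyclic AMP element TGACGTCA, the AP-1 site TGANTCA, the FOXO site GTAAACA, the NF-kB site (GGG, any 3 bases, TTCC) and the E-box CACGTG. They occur in 3.45%, 1.55%, 6.75%, 3.17%, 4.65% and 6.02% of all windows, in that order. Neither the composite element nor the cyclic AMP element was found in the 3 Bbc3 windows, and the third window held 1 E-box. Of the 10 genes, 9 had a window in the table, and these matches are letters only.

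Pmaip1 (chr18:66458533-66465565, plus strand) encodes NOXA, a BH3-only protein with a preference for MCL1. It was at 45.95 CPM in untreated GM-BMDM, 47.48 CPM in GM-BMDM with tunicamycin, 20.15 CPM in untreated M-BMDM and 35.29 CPM in M-BMDM with tunicamycin. Both GM-BMDM libraries were above both M-BMDM libraries, and the untreated M-BMDM library was lowest. The tunicamycin ratio was 1.75 in M-BMDM (1.6 to 1.91) and 1.03 in GM-BMDM (0.97 to 1.1), a log2 difference of -0.76 between the responses (-0.92 to -0.61).

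Bcl2l11 encodes BIM, a BH3-only protein that binds every survival member and is transcribed under FOXO factors in cytokine-starved blood cells. It was at 52.13 and 42.58 CPM in GM-BMDM without and with tunicamycin, and at 82.98 and 57.97 CPM in M-BMDM. The tunicamycin library was the lower one in both kinds, with a ratio of 0.817 in GM-BMDM (0.767 to 0.87) and 0.699 in M-BMDM (0.662 to 0.737), and the interval excluded 1 in both. Bid, whose product is cut by caspase-8 and so links death receptors to mitochondria, was at 36.56 and 35.02 CPM in GM-BMDM and at 58.77 and 56.9 CPM in M-BMDM. Its 2 tunicamycin ratios were 0.958 (0.891 to 1.03) and 0.968 (0.913 to 1.03), so neither differed from 1 beyond counting error, and the kinds of macrophage did not overlap. Bid shares 913 bases with Bcl2l13 on the opposite strand, and whether the counting used strand is not stated.

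The pore formers differed from each other. Bax (chr7:45461697-45466898, minus strand) was at 45.87, 45.05, 52.22 and 51.69 CPM in untreated GM-BMDM, GM-BMDM with tunicamycin, untreated M-BMDM and M-BMDM with tunicamycin, the narrowest range of the 10 genes. Its tunicamycin ratio was 0.982 in GM-BMDM (0.921 to 1.05) and 0.99 in M-BMDM (0.931 to 1.05). Bak1 (chr17:27019810-27029009, minus strand) was at 122.7 and 113.4 CPM in GM-BMDM and at 66.42 and 55.86 CPM in M-BMDM, so that both GM-BMDM libraries were higher. Its ratio after tunicamycin was 0.924 in GM-BMDM (0.888 to 0.962) and 0.841 in M-BMDM (0.795 to 0.89). All 9200 bases of Bak1 lie within Ggnbp1 on the opposite strand, which had 287 reads over the 4 macrophage libraries.

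Among the survival genes, Mcl1 (chr3:95658788-95663176, plus strand), whose short-lived protein holds back BAK and BIM, was at 816.4 and 790.0 CPM in GM-BMDM without and with tunicamycin and at 1191 and 1227 CPM in M-BMDM. The 2 kinds did not overlap, and tunicamycin went with ratios of 0.968 (0.953 to 0.982) and 1.03 (1.02 to 1.04), both close to 1 although the intervals exclude it. Bcl2l1 (chr2:152780668-152831728, minus strand), which encodes BCL-XL, was at 62.34 and 60.21 CPM in GM-BMDM and at 43.02 and 54.72 CPM in M-BMDM. Its level was lowest in untreated M-BMDM, and the tunicamycin ratio was 1.27 there (1.19 to 1.36) and 0.966 in GM-BMDM (0.914 to 1.02). Bcl2 (chr1:106538178-106714274, minus strand), the founding member of the family, was at 22.11 and 16.9 CPM in GM-BMDM and at 8.319 and 8.674 CPM in M-BMDM. Both GM-BMDM libraries were higher, and the tunicamycin ratio of 0.764 in GM-BMDM (0.692 to 0.844) had no counterpart in M-BMDM, where it was 1.04 (0.894 to 1.22). The log2 difference between the responses was -0.45 for Bcl2 (-0.71 to -0.19) and -0.40 for Bcl2l1 (-0.52 to -0.28).

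**Figure D2:**
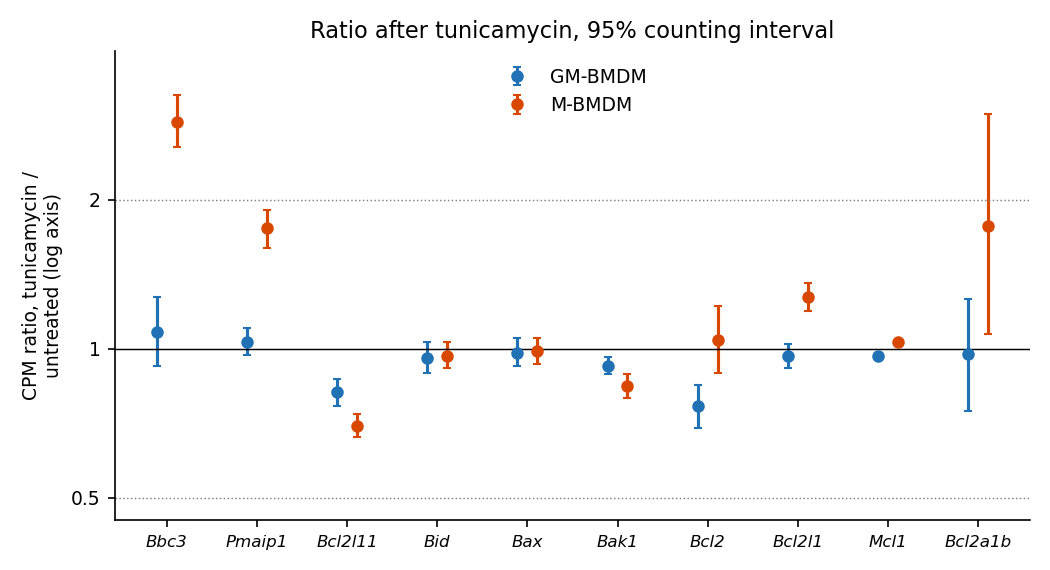
Ratio of CPM with tunicamycin to CPM without it for the 10 genes in GM-BMDM and M-BMDM, on a log axis; bars are exact 95% intervals for counting error and dotted lines mark a 2-fold difference. Bbc3 in M-BMDM, at 2.87, is the only point above the upper dotted line, and the Bcl2a1b bar in M-BMDM crosses it from a ratio of 1.77.

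Bcl2a1b encodes A1, a survival protein known from neutrophils, mast cells and activated leukocytes, and belongs to a set of near-identical mouse copies on chromosome 9. It lies at chr9:89199209-89207827, and the copies Bcl2a1a and Bcl2a1d lie at chr9:88956900-88962419 and chr9:88723285-88731914. Of the stretches of 50 bases in Bcl2a1b transcripts (GENCODE M21), 79.2% also occur in another gene, and for Bcl2a1a and Bcl2a1d the shares are 69.0% and 79.5%, whereas 0% to 8.51% was found for the other 9 genes of the family. The longest coding transcripts were 99.1% identical between Bcl2a1b and Bcl2a1d and 98.2% between Bcl2a1b and Bcl2a1a, so reads may have been split among copies. The bases before the first annotated exon are shown for the 3 copies to make this likeness visible, with an AP-1 match in capitals, each read in the direction of its gene from GRCm38.p6 at chr9:88956670-88956899 (plus strand), chr9:89199023-89199208 (plus strand) and chr9:88731915-88732100 (minus strand).
Bcl2a1a: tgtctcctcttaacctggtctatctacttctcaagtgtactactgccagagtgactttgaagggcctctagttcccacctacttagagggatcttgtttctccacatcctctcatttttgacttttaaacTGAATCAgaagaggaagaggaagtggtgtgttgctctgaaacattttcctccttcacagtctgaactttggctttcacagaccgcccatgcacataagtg
Bcl2a1b: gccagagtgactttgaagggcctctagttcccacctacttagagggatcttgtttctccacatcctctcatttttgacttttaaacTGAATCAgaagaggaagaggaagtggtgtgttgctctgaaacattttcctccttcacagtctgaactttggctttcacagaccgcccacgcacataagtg
Bcl2a1d: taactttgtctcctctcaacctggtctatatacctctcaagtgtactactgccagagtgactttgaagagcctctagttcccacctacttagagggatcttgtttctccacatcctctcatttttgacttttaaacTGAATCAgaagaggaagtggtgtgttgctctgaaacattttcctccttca
The aligned bases of these windows were 99.5% identical between Bcl2a1a and Bcl2a1b (186 bases aligned), 97.8% between Bcl2a1a and Bcl2a1d (180 bases) and 99.3% between Bcl2a1b and Bcl2a1d (136 bases). All 3 full windows hold the AP-1 letters, which stand in 6.75% of all windows. The full Bcl2a1b window also holds the only match to the ATF4 and C/EBP composite element among the members' windows searched, which left out Pmaip1. This match is at bases -40 to -33 from the RefSeq start, beyond the printed stretch and within bases that GENCODE M21 counts as exon.

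Bcl2a1b itself had few reads, with 118 and 121 in GM-BMDM without and with tunicamycin and 25 and 50 in M-BMDM (2.931, 2.851, 0.6709 and 1.185 CPM). Bcl2a1a was at 113.5 and 95.74 CPM in GM-BMDM and at 0.2952 and 1.73 CPM in M-BMDM, and Bcl2a1d was at 114.9 and 92.04 against 2.496 and 6.043 CPM. All 3 copies were therefore higher in GM-BMDM, and their sum was 231.3 and 190.6 CPM there against 3.462 and 8.958 CPM in M-BMDM. Summed over these 3 copies, which removes the split among them but not reads placed on other copies or left out as ambiguous, untreated GM-BMDM had 66.8 times the level of untreated M-BMDM (56.2 to 80.1), and 21.3 times after tunicamycin (19.2 to 23.7). The sum had a tunicamycin ratio of 2.59 in M-BMDM (2.11 to 3.19) and of 0.824 in GM-BMDM (0.8 to 0.849). The neutrophil, dendritic and mast cell marker sums given above were higher in the same GM-BMDM libraries, though each rested mostly on few genes, as given there. The macrophage marker sum was lower in untreated GM-BMDM than in M-BMDM (38480 against 51070 CPM) and higher with tunicamycin (36360 against 31690 CPM). That sum was mostly Lyz2, and with tunicamycin 4 of the 10 macrophage markers were at least 2-fold lower in GM-BMDM and 1 higher. The part of these marker sums in the differences between the kinds was not tested.

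**Figure D3:**
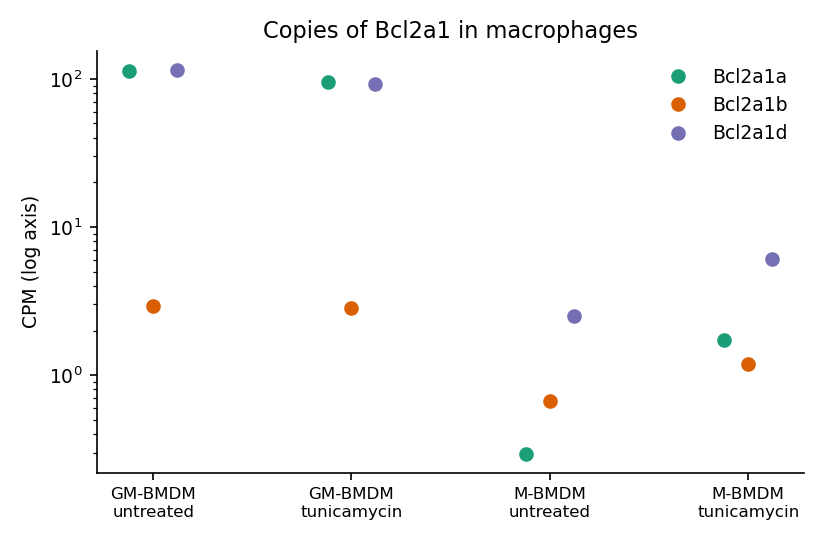
CPM of Bcl2a1a, Bcl2a1b and Bcl2a1d in the 4 macrophage libraries on a log axis, 1 point per library. Bcl2a1a and Bcl2a1d lie between 92.04 and 114.9 CPM in GM-BMDM and at or below 6.043 CPM in M-BMDM, and Bcl2a1b lies at or below 2.931 CPM throughout.

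More of the 10 genes, and more of all genes, differed between the kinds of macrophage than with tunicamycin. Between the untreated libraries Pmaip1 (2.28 times, 2.09 to 2.48), Bcl2 (2.66 times, 2.33 to 3.03) and Bcl2a1b (4.37 times, 2.82 to 7.02) were higher in GM-BMDM, 3 of 10 genes where 19.4% of all genes compared differed that much. With tunicamycin Bak1 was 2.03 times higher (1.93 to 2.13) and Bbc3 lower in GM-BMDM, 2 of 10 genes where 20.4% of all genes differed. Bcl2a1b had a larger CPM ratio than Bak1, 2.41 (1.72 to 3.42), but a difference of 0.82 on the log2(CPM + 1) scale, and with a pseudocount of 0.1 CPM it passed too (3 of 10). The median difference of the 10 genes was 0.171 untreated and -0.029 with tunicamycin, beside -0.033 and -0.037 over all genes. An additive fit of kind and tunicamycin over the 4 libraries (edgeR's quasi-likelihood test, Benjamini-Hochberg adjustment over all genes fitted, 1 residual degree of freedom) called 8 of 10 genes between the kinds, and 50.4% of the 11049 genes fitted were called. The median log2 fold change was 0.072 for the 10 genes and -0.04 for all. Bcl2a1b (log2 fold change 1.65 ± 0.33 SE, edgeR adjusted p 0.00595), Bcl2 (1.19 ± 0.16, 0.000929), Bak1 (0.95 ± 0.11, 0.000529) and Pmaip1 (0.80 ± 0.19, 0.0121) were higher in GM-BMDM. Bbc3 (-1.09 ± 0.31, edgeR adjusted p 0.0239), Bid (-0.69 ± 0.12, 0.00282), Mcl1 (-0.59 ± 0.13, 0.00758) and Bcl2l11 (-0.56 ± 0.12, 0.00861) were lower. Each role therefore had calls in both directions except the pore formers, where Bax was not called (-0.19 ± 0.12, edgeR adjusted p 0.21), as was Bcl2l1 (0.34 ± 0.14, adjusted p 0.0828). The same 8 genes were called by DESeq2, which called 4608 of the 11049 genes fitted. The Bbc3 call was lost with edgeR's robust estimate of the spread (edgeR adjusted p 0.0622).

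For tunicamycin itself the same edgeR fit called 0 of 10 genes and 0.0% of all genes fitted, with 1103 genes at an unadjusted p under 0.05 and 52 genes called by DESeq2, none of the 10 among them. The lowest unadjusted values of the family were those of Bcl2l11 (log2 fold change -0.41 ± 0.12, p 0.0134, edgeR adjusted p 0.456) and Bbc3 (0.85 ± 0.31, p 0.0298, edgeR adjusted p 0.478). In this additive fit any difference between the responses of the 2 kinds counts as error.

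LLC cells expressed 8 of the 10 genes. In each of the 5 LLC libraries Pmaip1, Bcl2a1a, Bcl2a1b and Bcl2a1d had 0 reads, which allows a level of up to 0.198 CPM in untreated cells and 0.177 to 0.195 CPM in the others (3 counts, counting error only). Conditioned medium of any sort went with less Bcl2l11, Bcl2l1 and Mcl1 RNA and with more Bbc3, Bcl2, Bax and Bak1 RNA. By the log2(CPM + 1) rule only Bcl2l11 reached a 2-fold difference, and the CPM ratio of Bbc3 was 2.01 with stressed GM medium.

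**Figure D4:**
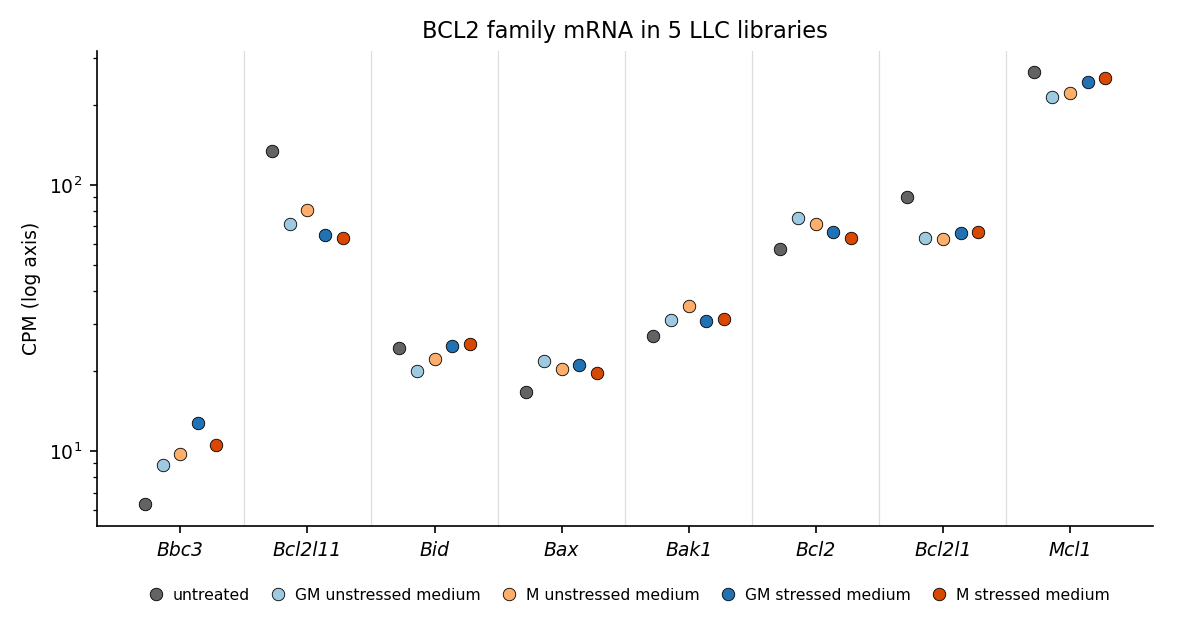
Level of the 8 BCL2 family genes detected in the 5 LLC libraries, in CPM on a log axis, 1 point per library. Untreated cells have the highest Bcl2l11 (134.1 CPM) and Bcl2l1 (89.97 CPM) and the lowest Bbc3 (6.323 CPM) of the 5 libraries.

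Bcl2l11 (chr2:128126038-128162547, plus strand) had the widest range of the family in LLC cells. It was at 134.1 CPM in untreated cells, 71.54 and 80.64 CPM with unstressed GM and M medium, and 64.8 and 63.16 CPM with stressed GM and M medium. The untreated library stood above the other 4, and both stressed libraries were below both unstressed ones. Against untreated cells the level was 1.87 times lower with unstressed GM medium (1.74 to 2.02), 1.66 times lower with unstressed M medium (1.55 to 1.79), and 2.07 (1.92 to 2.23) and 2.12 (1.97 to 2.29) times lower with the stressed GM and M media. These 4 ratios share the untreated library. The 250 bases before the first RefSeq start of Bcl2l11 (GRCm38.p6, chr2:128125788-128126037, plus strand) are printed because FOXO factors are known regulators of this gene, and capitals mark the FOXO match, which 3.17% of all windows hold. The window of the second start held no match to any of the 6 motifs.
Bcl2l11 start 1: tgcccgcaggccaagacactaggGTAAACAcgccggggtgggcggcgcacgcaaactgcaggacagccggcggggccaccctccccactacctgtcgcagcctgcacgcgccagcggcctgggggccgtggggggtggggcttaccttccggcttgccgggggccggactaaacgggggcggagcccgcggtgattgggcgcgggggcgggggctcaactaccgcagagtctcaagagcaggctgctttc

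Bbc3 was at 6.323 CPM in untreated LLC cells, 8.902 and 9.741 CPM with unstressed GM and M medium, and 12.72 and 10.53 CPM with stressed GM and M medium, from 96 to 202 reads. Untreated cells were lowest and stressed GM medium highest, at a ratio of 2.01 (1.57 to 2.59) that was under the threshold on the log2(CPM + 1) scale (0.91). Bid (chr6:120891930-120916853, minus strand) ranged over 19.95 to 25.19 CPM, with 24.5 CPM in untreated cells. The pore formers were lowest in untreated cells, Bax at 16.73 CPM against 19.63 to 21.9 CPM in medium and Bak1 at 27.2 CPM against 30.73 to 35.03 CPM.

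Of the survival genes, Bcl2l1 was at 89.97 CPM in untreated cells, 63.22 and 62.58 CPM with unstressed GM and M medium, and 66 and 66.77 CPM with stressed GM and M medium. The 4 libraries in medium lay close together below the untreated one, with ratios between 0.696 and 0.742. Mcl1 was at 264.8 CPM in untreated cells, 214.7 and 221.5 CPM with unstressed medium, and 243.9 and 252.8 CPM with stressed medium. Its stressed libraries stood between the unstressed ones and the untreated one. Bcl2 was at 57.5 CPM in untreated cells, 75.11 and 71.35 CPM with unstressed GM and M medium, and 66.44 and 63.1 CPM with stressed medium, so that its stressed libraries also lay between the untreated and the unstressed ones, with the untreated level lowest here.

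Against untreated cells, 0 of the 8 genes compared differed 2-fold with unstressed GM medium (2.97% of the 11190 genes compared) or unstressed M medium (1.9%), and 1 of 8, Bcl2l11, did with either stressed medium (3.89% of all genes for GM and 3.36% for M). Stressed against unstressed medium gave 0 of 8 for GM medium (0.518% of all genes) and for M medium (0.554%), and GM against M medium gave 0 of 8 unstressed (0.188%) and stressed (0.259%).

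The additive edgeR fit over the 5 LLC libraries called 5 of 8 genes for unstressed medium against untreated cells, where 40.3% of the 11190 genes fitted were called (median 0.031 for the 8 genes and 0.026 for all). Bcl2l11 fell (log2 fold change -0.82 ± 0.077 SE, edgeR adjusted p 2.34e-24), as did Bcl2l1 (-0.52 ± 0.083, 8.47e-09) and Mcl1 (-0.28 ± 0.070, 0.000311). Bcl2 rose (0.35 ± 0.089, edgeR adjusted p 0.000446), as did Bbc3 (0.56 ± 0.22, 0.0331). Bak1 (0.28 ± 0.12, edgeR adjusted p 0.0582), Bax (0.33 ± 0.15, 0.0641) and Bid (-0.22 ± 0.14, 0.199) did not pass. This contrast rests on 1 untreated library, and DESeq2 called 3 of 8, Bcl2l11, Bcl2l1 and Mcl1.

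For stressed against unstressed medium the edgeR fit called 3 of 8 genes, where 23.3% of all genes were called (median 0.013 for the 8 genes and -0.003 for all). Bcl2l11 fell further (-0.25 ± 0.068, edgeR adjusted p 0.00227), Bcl2 fell (-0.18 ± 0.070, 0.0499) and Mcl1 rose (0.19 ± 0.057, 0.00756). Bbc3 (0.31 ± 0.16, edgeR adjusted p 0.159) and Bid (0.25 ± 0.11, 0.0878) did not pass, nor did Bax, Bak1 and Bcl2l1. DESeq2 called 0 of 8 here (456 genes in all), with a DESeq2 adjusted p of 0.263 for Mcl1, 0.429 for Bcl2l11 and 0.756 for Bcl2. For Bcl2l11 the log2 response to stress was 0.21 smaller in size with GM medium than with M medium (-0.14 against -0.35, counting interval of the difference 0.04 to 0.38), and for Mcl1 the responses were 0.18 and 0.19. GM against M medium gave 0 of 8 calls with edgeR and with DESeq2, where edgeR called 4.53% of all genes and DESeq2 called 31 genes. None of the 8 had an unadjusted p under 0.05, the lowest edgeR adjusted p was 0.735 for Bcl2, and Bcl2l1 differed by -0.001 ± 0.070 (edgeR adjusted p 0.996).

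**Figure D5:**
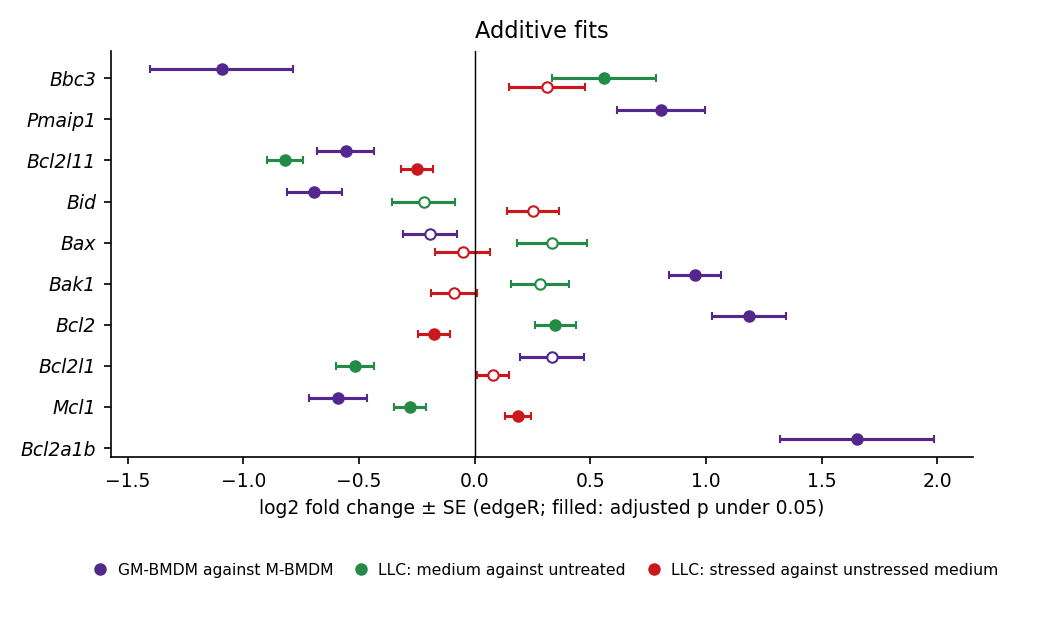
Log2 fold change with its SE from the additive edgeR fits for the kind of macrophage, for unstressed medium against untreated LLC cells and for stressed against unstressed medium; filled points have an adjusted p under 0.05. Effects of macrophage kind span -1.09 (Bbc3) to 1.65 (Bcl2a1b), and those of stressed medium span -0.25 (Bcl2l11) to 0.31 (Bbc3, open).

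Several genes of the stress and p53 list had larger tunicamycin ratios than any of the 10 genes. The list, called upstream regulators here, also holds targets of such regulators, among them Trib3 and Chac1. Atf4, which encodes the main transcription factor of the integrated stress response, was at 216 and 299 CPM in GM-BMDM without and with tunicamycin and at 160 and 614 CPM in M-BMDM. Ddit3 (CHOP) was at 13.5 and 44.3 CPM in GM-BMDM and at 17 and 194 CPM in M-BMDM. For both genes M-BMDM with tunicamycin was the highest library, as for Bbc3, with a tunicamycin ratio of 3.84 for Atf4 (3.73 to 3.95) and 11.4 for Ddit3 (10.5 to 12.4) in M-BMDM. Trp53, which encodes p53, was at 37.1, 33.8, 32.3 and 35.9 CPM in the same order and did not separate the libraries. Of 16 upstream regulators compared, 8 were at least 2-fold higher with tunicamycin in M-BMDM (median log2 difference 1.04) and 3 in GM-BMDM (median 0.06), beside medians of 0.004 and 0.001 over all genes. The 3 in GM-BMDM were Ddit3 (3.29 times), Trib3, a pseudokinase induced by CHOP (5.38 times), and Chac1, an ATF4 target that degrades glutathione (9.36 times). In M-BMDM the ratio was 54.9 for Trib3 and 92.1 for Chac1. Between the kinds, the edgeR fit had 2 of 16 regulators higher in GM-BMDM and 3 lower, where 50.4% of all genes fitted were called. Ddit3 was among the lower regulators (-1.28 ± 0.38, edgeR adjusted p 0.0282).

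In LLC cells Atf4 was at 550 CPM untreated, 852 and 828 CPM with unstressed GM and M medium, and 964 and 894 CPM with stressed GM and M medium, and Ddit3 was at 18.5, 30.8, 32.5, 40.9 and 46.5 CPM in that order. Trp53 was at 84.9, 136, 128, 158 and 152 CPM. All 3 rose in the fit of unstressed medium (edgeR: Atf4 0.61 ± 0.067, adjusted p 4.05e-18, Ddit3 0.77 ± 0.13, adjusted p 5.77e-08, Trp53 0.63 ± 0.079, adjusted p 4.65e-14), and 9 of 15 upstream regulators rose and 1 fell (median 0.295). With stressed medium 9 of 15 also rose and 1 fell (median 0.193). The largest rises were those of Atf3, a stress-induced repressor and activator (2.45 ± 0.13, edgeR adjusted p 1.99e-77), and Ppp1r15a, which restores translation through eIF2 alpha dephosphorylation (1.57 ± 0.073, 2.12e-97). Over all genes fitted, 40.3% were called with unstressed and 23.3% with stressed medium, at medians of 0.026 and -0.003.

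Among 16 other BCL2 family genes, 10 passed the CPM minimum in each table. Bmf, a BH3-only gene linked to loss of attachment, was at 52.7 and 46.9 CPM in GM-BMDM and at 82.6 and 40.2 CPM in M-BMDM, where tunicamycin went with a level 2.05 times lower (1.94 to 2.18). In LLC cells Bmf was at 43.8 CPM untreated, 42.4 and 41.2 CPM with unstressed medium and 27.9 and 26.4 CPM with stressed medium. Both stressed libraries were the lowest, and Bmf fell with stressed medium (-0.62 ± 0.095, edgeR adjusted p 2.79e-09). Bnip3, a hypoxia-induced mitophagy receptor, rose with unstressed medium (0.94 ± 0.13, edgeR adjusted p 1.57e-11) and again with stressed medium (0.35 ± 0.092, 0.00175), and was 2.42 and 2.44 times higher than in untreated cells with stressed GM and M medium. Between the macrophage kinds 4 of these 10 genes were higher in GM-BMDM and 0 lower, where 50.4% of all genes fitted were called. Bnip3l (1.06 ± 0.12, edgeR adjusted p 0.00034) was among the 4, as were the copies Bcl2a1a and Bcl2a1d described above. In LLC cells 4 rose and 0 fell with unstressed medium (40.3% of all genes called) and 3 rose and 1 fell with stressed medium (23.3%).

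Beside the family, 16 apoptosome and caspase genes, 8 inhibitor of apoptosis (IAP) genes and antagonists, 11 death receptor genes and 6 genes of MCL1 and NOXA turnover were compared. Tunicamycin went with no 2-fold difference in any of them in either kind of macrophage. Over all genes compared, 0.507% differed that much in GM-BMDM and 1.47% in M-BMDM. The edgeR fit of tunicamycin called 0 of the 11049 genes fitted, so none of the 6 lists beside the 10 genes could have a call. Between the kinds, the edgeR fit had 5 of 16 apoptosome and caspase genes higher and 4 lower in GM-BMDM, 1 of 8 IAP genes higher and 4 lower, 3 of 11 death receptor genes higher and 4 lower and 2 of 6 turnover genes higher and 1 lower, beside 2803 higher and 2765 lower of 11049 genes. The list medians were 0.255, -0.609, -0.216 and -0.08 in that order. Among the largest were Birc5, which encodes the mitotic protein survivin (3.94 ± 0.20, edgeR adjusted p 1.11e-05), and Ripk3, the kinase of necroptosis (2.96 ± 0.16, 1.32e-05), both higher in GM-BMDM. Tnfsf10, which encodes TRAIL, was lower (-3.07 ± 0.26, edgeR adjusted p 0.000109). In LLC cells Ripk3 had 0 reads in all 5 libraries. With unstressed medium 4 of 15 apoptosome and caspase genes rose and 3 fell, 3 of 9 IAP genes rose and 1 fell, 1 of 8 death receptor genes rose and 2 fell and 2 of 6 turnover genes rose, beside 2439 higher and 2074 lower of 11190 genes. With stressed medium the counts were 3 rising and 0 falling, 0 and 2, 1 and 0, and 2 and 0 in the same order, and Cycs, which encodes cytochrome c, was among the genes that rose (0.46 ± 0.059, edgeR adjusted p 9.35e-13). The all-gene counts for stressed medium were 1395 higher and 1216 lower. Between GM and M medium the edgeR fit called 3 genes over the 6 lists, where 4.53% of the 11190 genes fitted were called. Of 15 upstream regulators 2 were higher with GM medium, Trib3 (0.26 ± 0.058, edgeR adjusted p 0.000584) and Chac1 (0.33 ± 0.098, edgeR adjusted p 0.0197). Of 8 death receptor genes 1 was lower, Cflar, which encodes the caspase-8 regulator FLIP (-0.21 ± 0.062, edgeR adjusted p 0.0239).

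The genes most like Bbc3 over the 4 macrophage libraries were Taf15, Arl14ep, Rab20, Zc3h12c and Ern1, with mean absolute differences of centred log2(CPM + 1) from 0.087 (Taf15) to 0.1 (Ern1) among 9417 genes searched. Ern1, which encodes the stress sensor IRE1 alpha, was at 48.2 and 56.7 CPM in GM-BMDM and at 74.1 and 167 CPM in M-BMDM without and with tunicamycin. Over the 5 LLC libraries the genes most like Bcl2l11 were Appl2, Idh1, Plekho2, Sord and Per1 (0.026 to 0.049 among 9660 genes). With 4 and 5 libraries such likeness is a description only.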

How the data were processed

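Per the file headers, the authors deposited read counts per gene and FPKM values side by side, in 1 table for LLC cells and 1 for macrophages. The counts were whole in all cells, and the deposited FPKM equalled values recomputed from counts, length and total within 4.9e-06. The submitters' processing notes name cutadapt 1.15, HISAT2 and TopHat2 2.1.0, without roles. No source used here names the counter, its use of strand or the build. Coordinates of all 10 genes equal those of GENCODE M21 (GRCm38), as do 21604 of 21817 shared identifiers, so that build is printed. Groups came from titles and treatment labels.

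From the counts the authors deposited, CPM was computed with TMM factors over each whole table (edgeR 4.0.16, R 4.3.3), so levels compare only within a table. Genes needed a mean of 1 CPM. Pairs of libraries (4 in macrophages, 8 in LLC cells) are given as CPM ratios with exact Clopper-Pearson 95% intervals from the counts; these and the floor of 3 counts cover counting error only, and reads may include PCR duplicates. The additive models were fitted by quasi-likelihood in edgeR, with calls at an adjusted p of 0.05, and were tested on simulated counts; DESeq2 1.42.0 was an alternative. The BMDM fit held kind and tunicamycin, and the LLC fit held medium, its kind and its stress. Each leaves 1 residual degree of freedom, moderated over genes. The common coefficient of variation was 11.5% in macrophages (prior degrees of freedom 5.77) and 4.28% in LLC cells (prior degrees of freedom infinite). Nothing says that the libraries came from separate animals or cultures. The residual is the difference between kinds in the response to tunicamycin, or between GM and M medium in the response to stressed medium. The p-values rest on that difference, moderated over genes, and measure no spread between replicate libraries. The untreated LLC library adds nothing to this error.

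Besides the 10 members, Atf4, Ddit3 and Trp53 and up to 4 genes per list and comparison that differed 2-fold or passed a fit could be named, and the 5 genes most like the member of widest range. The members, 7 pathway lists and 8 marker lists were chosen with earlier results of these data known. Bcl2a1a and Bcl2a1d are given as copies of a member. Promoter windows are RefSeq's (GRCm38.p6). Alternatives were DESeq2, its size factors, total counts, no filter on low counts, a robust spread, a pseudocount of 0.1 CPM, a 1.5-fold threshold and leaving out the untreated LLC library.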

Additional observations from a re-analysis of the deposited data

Results flagged for a closer look

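Mcl1 was flagged because the 2 kinds of macrophage moved in opposite directions with tunicamycin, which was not particular to this gene. Its log2 response was -0.048 in GM-BMDM and 0.043 in M-BMDM, a difference of -0.091 (counting interval -0.12 to -0.06) that was not tested, since each kind has 1 library in each state. Scaled by total counts, the log2(CPM + 1) difference in GM-BMDM was 0.006, so that both kinds had the same sign. With TMM, opposite signs and larger differences were also seen for Bcl2 (log2 response -0.388 in GM-BMDM and 0.06 in M-BMDM), Bcl2l1 (-0.05 and 0.347) and Bcl2a1b (-0.04 and 0.821).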

How the results depend on the processing

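Every count rests on 1 library per group, and no alternative changed that. No paired analysis was possible because each group has 1 library. With DESeq2, genes called numbered 52 for tunicamycin (0 with edgeR), 456 for stressed medium (2611), 31 for the kind of medium (507) and 1375 for unstressed medium (4513), and members called numbered 0 for stressed medium (3) and 3 for unstressed medium (5). Without the filter on low counts 101 genes were called for tunicamycin, none a member. The Bcl2 call with stressed medium was also lost with DESeq2's size factors in edgeR (adjusted p 0.0562) and without the filter (adjusted p 0.0743), and Bbc3 lost its call between macrophage kinds with a robust spread. With a threshold of 1.5-fold, members past it numbered 2 in M-BMDM with tunicamycin, 6 between the kinds untreated and 6 with tunicamycin, and, against untreated LLC cells, 1 with either unstressed medium and 2 with either stressed medium. The share of all genes past 1.5-fold is not given here, so these counts cannot be read against it. Under total counts the median log2(CPM + 1) difference of all genes was 0.102 for tunicamycin in M-BMDM (0.004 with TMM) and -0.133 between kinds with tunicamycin (-0.037 with TMM), where 1 member (Bbc3) then passed 2-fold and Bak1 (0.91) did not. The cause of these shifts was not tested. Leaving out the untreated LLC library gave 2614 genes for stressed medium and 507 for the kind of medium. No other count of members moved by over 1.5 times, and no call changed sign under these alternatives. Depth limits Bcl2a1b most, with 25 to 121 reads, and Bbc3 in LLC cells, with 96 to 202.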
